A study of Mus musculus with 6 samples.

Results

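The immunoglobulin genes are the segments from which B cells build antibodies, and they were read here in mouse femur on day 21 after radiation of 1 leg. Members are the rows of the deposited gene count table whose biotype starts with IG_, which covers variable (V), diversity (D), joining (J) and constant (C) genes and their pseudogenes. Of 43346 rows, 469 met this rule. By gene name, 204 belonged to the heavy chain locus (Igh), 104 to the kappa light chain locus (Igk) and 3 to the lambda light chain locus (Igl). A further 139 rows were T cell receptor segments, which the annotation of the table places under the same biotype, and 19 carried no locus prefix, 17 of them on chromosome 12 with the heavy locus and 2 on chromosome 6 with the kappa locus. The heavy rows held 172 V genes, of which 59 were pseudogenes, with 20 D, 4 J and 8 C genes, and the kappa rows held 98 V, 5 J and 1 C gene. The lambda rows were 3 V genes, since the lambda constant gene Iglc2 and the surrogate light chain gene Igll1 are typed as protein coding and fall outside the rule. Iglc2 is given below as context.

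The mice were C57BL/6, an inbred laboratory strain, and 4 months old. In the radiated group (R), 5 mm of the distal metaphysis of the right femur had received 24 Gy in 1 dose, at 6.6 Gy per minute, and in the non-radiated group (NR) the left femur of such animals served as control. No genotype other than the strain is given for either group, and both legs belong to animals that had been radiated on 1 side. Each group held 3 libraries, numbered 1 to 3, with 34034251 to 48708383 counts in a library. The labels do not say whether the libraries came from separate mice, so a p-value here measures only the spread between these samples. The tissue is bone with its marrow, and bone markers (Col1a1, 2984 to 6185 CPM) and B lineage markers (Cd79a, 43.0 to 86.6 CPM) were present in all 6 libraries. CPM are counts relative to a common library size, with libraries scaled by the trimmed mean of M-values (TMM).

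A developing B cell joins 1 V, 1 D and 1 J segment of the heavy locus, then 1 V and 1 J segment of a light chain locus, by V(D)J recombination, and the joined exon is spliced to a constant gene. IgM, from Ighm, is made before any other class, and mature naive B cells make IgD, from Ighd, beside it from the same primary transcript. After class switching, B cells and plasma cells use the IgG, IgE or IgA constant genes. Bone marrow holds all of these stages, from pro-B cells to long-lived plasma cells, which carry far more immunoglobulin transcript per cell than the others.

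The members on which the results below turn are a heavy and a light variable gene that are known as partners. Ighv11-2 and Igkv14-126 encode the heavy and the light chain of a well-known class of phosphatidylcholine-binding antibody, found mostly in B-1a cells, a self-renewing B cell subset. Their variable exons are shown so that the 2 chains can be compared with the other genes named (GENCODE M21, build GRCm38). Ighv11-2 lies at chr12:114048241-114048540 and its near copy Ighv11-1 at chr12:113981879-113982178, both on the minus strand, 66.4 kb apart. Over the 300 bases shown they are 98.7% identical, and capitals mark the 4 bases at which they differ.

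Ighv11-2: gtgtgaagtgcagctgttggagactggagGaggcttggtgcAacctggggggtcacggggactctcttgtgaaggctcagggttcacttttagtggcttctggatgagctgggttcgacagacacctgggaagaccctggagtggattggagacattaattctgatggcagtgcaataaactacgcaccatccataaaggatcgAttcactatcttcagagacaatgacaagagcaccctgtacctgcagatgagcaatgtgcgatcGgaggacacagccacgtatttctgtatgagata

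Ighv11-1: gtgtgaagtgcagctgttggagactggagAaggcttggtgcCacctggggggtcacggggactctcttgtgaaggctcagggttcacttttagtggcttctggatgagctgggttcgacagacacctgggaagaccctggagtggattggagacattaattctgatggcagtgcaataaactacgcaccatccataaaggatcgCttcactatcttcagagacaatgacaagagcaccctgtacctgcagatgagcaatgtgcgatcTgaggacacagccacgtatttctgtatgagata

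Reads from these 2 genes can be told apart only where they cover 1 of those bases, so the count of Ighv11-1, the lower of the pair, is uncertain. Igkv14-126 lies at chr6:67896345-67896642 on the plus strand. Igkv4-91 (chr6:68768555-68768854, minus strand) and Ighv12-3 (chr12:114366521-114366820, minus strand) encode the other classic light and heavy chain pair of phosphatidylcholine-binding antibodies. Capitals in these 3 run from the conserved cysteine codon near the end of the V segment to its 3′ end, the stretch that enters the third complementarity-determining region.

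Igkv14-126: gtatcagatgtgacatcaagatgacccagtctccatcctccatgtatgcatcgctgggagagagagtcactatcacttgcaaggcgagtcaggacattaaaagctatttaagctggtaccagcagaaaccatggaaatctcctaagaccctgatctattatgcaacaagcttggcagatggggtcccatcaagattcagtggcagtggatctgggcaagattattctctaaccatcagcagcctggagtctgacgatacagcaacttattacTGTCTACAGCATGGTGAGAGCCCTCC

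Igkv4-91: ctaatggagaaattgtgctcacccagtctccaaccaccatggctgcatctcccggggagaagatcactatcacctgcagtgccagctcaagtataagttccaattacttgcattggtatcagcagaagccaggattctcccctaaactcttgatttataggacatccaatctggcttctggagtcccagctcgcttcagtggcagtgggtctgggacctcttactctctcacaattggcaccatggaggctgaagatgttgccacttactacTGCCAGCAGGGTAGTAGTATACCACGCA

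Ighv12-3: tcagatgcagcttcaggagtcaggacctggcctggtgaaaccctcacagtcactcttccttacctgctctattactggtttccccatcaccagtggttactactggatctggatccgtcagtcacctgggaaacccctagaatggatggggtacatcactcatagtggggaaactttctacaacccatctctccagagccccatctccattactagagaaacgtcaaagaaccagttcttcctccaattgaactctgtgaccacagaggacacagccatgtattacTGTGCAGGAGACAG

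The 5 kappa joining segments are shown because 1 of them differs in the motif that every working J segment needs. Capitals mark the phenylalanine codon and the 3 codons after it, in which the known motif has glycine codons (GGN) after the phenylalanine and at the fourth place.

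Igkj1: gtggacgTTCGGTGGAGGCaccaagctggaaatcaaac

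Igkj2: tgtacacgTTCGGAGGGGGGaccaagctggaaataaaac

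Igkj3: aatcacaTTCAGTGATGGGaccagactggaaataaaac

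Igkj4: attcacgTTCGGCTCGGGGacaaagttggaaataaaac

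Igkj5: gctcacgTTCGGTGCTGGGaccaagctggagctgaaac

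In Igkj3 the second of these codons is AGT, and in the other 4 kappa segments it is GGT, GGA or GGC. Igkj3 is known as a nonfunctional segment. These segments lie at chr6:70722562-70722599, chr6:70722916-70722954, chr6:70723223-70723260, chr6:70723548-70723585 and chr6:70723886-70723923, in the order shown, on the plus strand.

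The total immunoglobulin signal did not separate radiated from non-radiated femur. Summed over the Igh, Igk and Igl rows it was 2184, 1570 and 4081 CPM in non-radiated libraries 1, 2 and 3, and 3439, 1993 and 2998 CPM in radiated libraries 1, 2 and 3. The highest and the lowest value were both in non-radiated libraries, so the groups overlapped, with means of 2611 ± 1309 and 2810.1 ± 741 CPM (SD, n = 3 each). The log2 ratio of the group means was 0.11. Its size and its sign turned on single libraries. Without non-radiated library 3 it was 0.58, without non-radiated library 2 it was -0.17, and without radiated library 1 it was -0.07. Between libraries of 1 number the log2 difference was 0.66 and 0.34 for numbers 1 and 2 and -0.44 for number 3. These rows took 0.113% to 0.422% of all counts (95% Wilson intervals 0.112% to 0.114% and 0.420% to 0.424%, for counting error only). The lowest share was that of non-radiated library 2, in which the single row AY036118 took 32.9% of all counts, against 0.321% to 5.61% in the other 5 libraries. In bulk tissue, fewer cells of a type and less RNA per cell cannot be told apart.

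By locus the picture was the same. The heavy locus summed to 1492, 1108 and 2837 CPM in the non-radiated and 2393, 1433 and 2168 CPM in the radiated libraries. For the kappa locus the sums were 653, 425 and 1196 CPM against 995, 508 and 789 CPM. The 3 lambda V genes summed to 38.3, 37.1 and 48.4 CPM against 50.8, 52.2 and 41.4 CPM. In all 3 loci the groups overlapped, and numbers 1 and 2 were higher in the radiated femur while number 3 was lower. The T cell receptor rows summed to 9.65, 8.38 and 9.98 CPM in the non-radiated and 13.7, 12.2 and 12.5 CPM in the radiated libraries, without overlap. They add little to the members, and only 8 of the 139 had enough counts to be tested. Of these 8, 0 were called with or without the block. In 2 of them (25.0%) the groups did not overlap, against 25.9% of all genes.

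**Figure D1:**
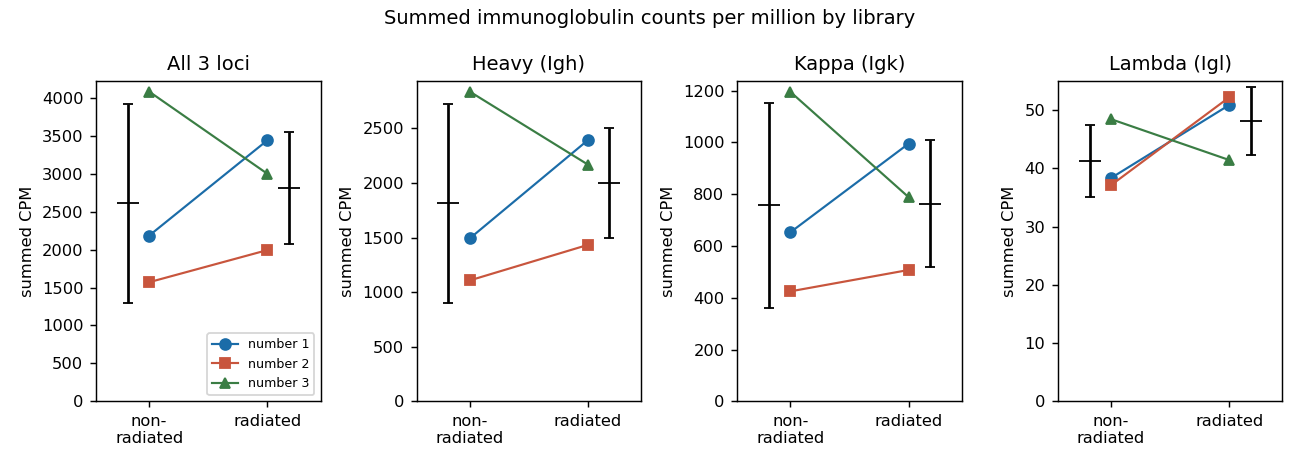
Summed CPM of the immunoglobulin rows in each library, for the 3 loci together and for each locus. Lines join libraries of the same number, and black bars give the mean and SD of 3 libraries, which overlap between the groups in every panel, from 1570 to 4081 CPM for the 3 loci together.

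Gene by gene, few immunoglobulin rows passed the test, and those that did were higher in radiated femur. Of the 330 immunoglobulin rows outside the T cell receptor, 264 had at least 1 count, and 189 had enough counts to be tested with edgeR's quasi-likelihood test. They hold 99.8% of the counts of these rows. A row may pass that filter through the group in which it is high. At a Benjamini-Hochberg adjusted p under 0.05 over 18757 genes, 6 rows rose (3.17% of 189, where 4.56% of all genes rose) and 0 fell (3.24% of all genes), with 22 at an unadjusted p under 0.05. DESeq2's Wald test called 9 higher and 2 lower (1938 of 18757 genes either way), and limma-voom 5 and 0 (1367 of 18757). For 14 rows the 2 groups had no overlap in CPM (7.41%, against 25.9% of all genes). The median log2 fold change was 0.06, against 0.00 over all genes.

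These rows varied far more between libraries of 1 group than other genes did. The median standard error of the log2 fold change was 0.47 over the 189 rows and 0.11 over all genes. With the library number as a block it was 0.27 and 0.11. In that fit 10 rows rose (5.29%, against 5.51% of all genes) and 4 fell (2.12%, against 3.39%), and 5 of the 6 called without the block were among them. By locus, 5 of 101 tested heavy rows (4.95%) and 1 of 84 tested kappa rows (1.19%) rose without the block, against 4.56% of all genes. Leaving out non-radiated library 1 reduced the 6 to 2, and leaving out radiated library 1 reduced them to 3. Over all genes, those fits called 905 of 19280 and 764 of 19169 either way, against 1463 of 18757 with all libraries.

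The heavy constant gene Ighd had the smallest adjusted p of all members. Ighd (ENSMUSG00000104213, chromosome 12, 113406604 to 113416324) was at 49.3, 48.9 and 55.2 CPM in the non-radiated libraries and at 81.0, 74.7 and 73.6 CPM in the radiated libraries. All 3 radiated libraries lay above all 3 non-radiated ones, whose values spanned only 1.13-fold. Its log2 fold change was 0.58 (± 0.07 SE, adjusted p 0.0011 in edgeR), and the call held in all 15 alternatives, with adjusted p from 8.65e-11 to 0.00828. Ighm, read from the same primary transcript, showed no such separation. It was at 906, 519.9 and 2056 CPM in the non-radiated and 1589, 805 and 1523 CPM in the radiated libraries. Here the highest and lowest values were again non-radiated, spanning 3.95-fold, and the log2 fold change of 0.17 (± 0.44 SE, adjusted p 0.87 in edgeR) was well inside that spread.

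Switched constant genes were not called with the group alone. Igha, which encodes IgA, was at 139.6, 188 and 74.2 CPM in the non-radiated and 163, 175 and 74.2 CPM in the radiated libraries. The order of the numbers was the same in both groups, and the radiated to non-radiated ratio within a number was 1.16, 0.930 and 0.999. Ighg1 was at 19.3, 78.5 and 7.20 CPM against 28.9, 79.1 and 8.69 CPM, so that number 2 was high and number 3 low in both groups. Ighg2b was lower in the radiated femur of every number, at 36.5, 28.1 and 17.2 CPM against 24.9, 17.9 and 14.7 CPM, while the groups overlapped. Its log2 fold change was -0.51 (± 0.26 SE, adjusted p 0.307 in edgeR), and with the block it was -0.48 (adjusted p 0.0187). Ighg3 and Ighg2c moved in different directions in different numbers, with edgeR adjusted p of 0.978 and 0.913. Ighe had at most 4 counts in a library and was not tested.

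As a share of heavy constant gene counts, which does not depend on the scaling of libraries, Ighm led in every library. It took 77.5%, 59.5% and 91.4% in the non-radiated and 82.7%, 69.0% and 88.9% in the radiated libraries (the widest 95% Wilson interval ran from 58.9% to 60.2%). Number 2 was lowest and number 3 highest in both groups. Igha took 11.9%, 21.6% and 3.30% against 8.46%, 15.01% and 4.33%, the reverse order. Ighd stood at 5.44, 9.42 and 2.68 counts per 100 counts of Ighm in the non-radiated libraries and at 5.10, 9.29 and 4.83 in the radiated ones. These shares overlapped between the groups for all 8 heavy constant genes.

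The light chain constant genes overlapped between the groups, as Ighm did. Igkc was at 318, 206 and 643 CPM against 525, 262 and 394 CPM, with a log2 fold change of 0.02 (± 0.37 SE, adjusted p 0.987 in edgeR). Iglc2 was at 19.6, 14.3 and 31.6 CPM against 27.7, 20.7 and 27.8 CPM (log2 fold change 0.21 ± 0.24 SE, adjusted p 0.698 in edgeR). Counts of Igkc per count of Iglc2 were 16.2, 14.4 and 20.3 in the non-radiated and 18.9, 12.7 and 14.2 in the radiated libraries, which overlapped. Igj, the older symbol of the J chain gene Jchain, whose product links IgM and IgA polymers, gave 119.6, 77.7 and 234 CPM against 149.8, 73.1 and 145.8 CPM (log2 fold change -0.23 ± 0.38 SE, adjusted p 0.785 in edgeR). Non-radiated library 3 was highest for Ighm, Igkc, Iglc2 and Igj alike.

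**Figure D2:**
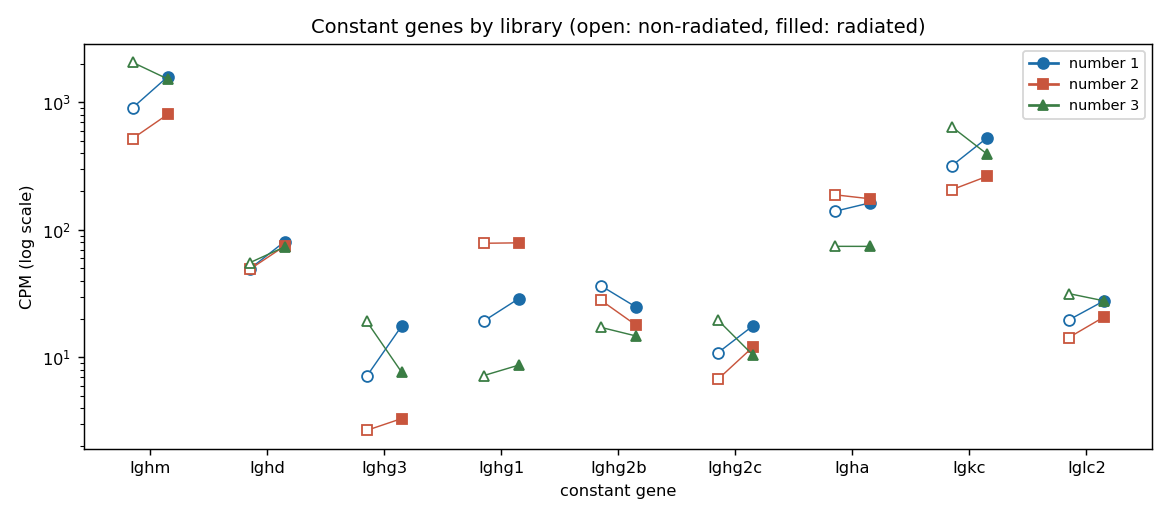
CPM (log scale) of the heavy, kappa and lambda constant genes in each library, with non-radiated libraries open, radiated ones filled and lines joining the same number. Ighd is tight within each group (48.9 to 55.2 CPM against 73.6 to 81.0 CPM), while the Ighg1 values split by number (7.20 to 79.1 CPM).

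Of the 9 joining genes, none was called with the group alone (1 had an unadjusted p under 0.05), and none separated the groups. Igkj4 was called only with the block. Its values were 11.8, 8.94 and 13.9 CPM in the non-radiated and 17.99, 13.2 and 15.8 CPM in the radiated libraries, higher in the radiated femur of each number but overlapping between groups. The log2 fold change was 0.43 (± 0.16 SE, adjusted p 0.164 in edgeR) without and 0.45 (adjusted p 0.0406) with the block. Per kilobase of segment, Igkj3, the segment with AGT in its motif, had the lowest level of the 5 kappa segments, at 106 CPM per kb averaged over the 6 libraries. The other 4 were at 258, 283, 358 and 289 CPM per kb for Igkj1, Igkj2, Igkj4 and Igkj5. In each library Igkj3 was the lowest of the 5, at 2.28 to 5.51 CPM, against 3.95 to 17.99 CPM for the others. The heavy joining genes Ighj1 to Ighj4 had edgeR adjusted p of 0.382 to 0.996.

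Diversity segments are too short to be read well in these counts. Of the 20 heavy D rows 8 had at least 1 count and 3 were tested, Ighd1-1, Ighd2-4 and Ighd4-1. Ighd5-2, Ighd5-3, Ighd5-4 and Ighd5-6 share the same 10 bases in the reference (gaatacctac), and all 4 were at 0 counts in every library. A count of 0 allows up to 3 counts, or 0.0562 to 0.12 CPM depending on the library.

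The largest rises among called variable genes averaging 1 CPM or more were those of the partner pair whose exons are printed above. Ighv11-2 (ENSMUSG00000096108) was at 14.5, 11.1 and 17.1 CPM in the non-radiated and 26.8, 28.6 and 60.4 CPM in the radiated libraries. Igkv14-126 (ENSMUSG00000094345) was at 16.3, 12.2 and 17.0 CPM in the non-radiated and 32.3, 27.9 and 52.5 CPM in the radiated libraries. For both genes every radiated library lay above every non-radiated one, and radiated library 3 was the highest. The log2 fold change was 1.43 (± 0.30 SE, adjusted p 0.0201 in edgeR) for Ighv11-2 and 1.30 (SE 0.22, adjusted p 0.00827) for Igkv14-126. With the block the adjusted p was 0.00107 and 0.000439. The call of Igkv14-126 held in all 15 alternatives, and that of Ighv11-2 was lost without non-radiated library 1 (adjusted p 0.0753) and without non-radiated library 2 (0.0839), with log2 fold changes of 1.44 and 1.28.

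The same was seen as a share of a locus. Ighv11-2 held 5.58%, 6.01% and 3.53% of heavy V counts in the non-radiated and 7.20%, 14.1% and 16.3% in the radiated libraries. Igkv14-126 held 5.66%, 6.57% and 3.47% of kappa V counts against 7.98%, 13.8% and 15.6%. Neither share overlapped between groups. Ighv11-2 was the most abundant heavy V gene in radiated libraries 2 and 3, and Igkv14-126 the most abundant kappa V gene in radiated library 3. In non-radiated library 3, which had the highest total of immunoglobulin, both genes had their lowest shares.

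The near copy Ighv11-1 was at 0.192, 0.0399 and 0.236 CPM in the non-radiated and 0.740, 0.449 and 0.919 CPM in the radiated libraries, also without overlap (log2 fold change 2.02 ± 0.48 SE, adjusted p 0.0342 in edgeR). Ighv11-2 stood far above it in every library, at 11.1 CPM or more. The call failed in 6 of 14 alternatives, which were limma-voom and all fits that left out 1 library except the fit omitting radiated library 2, with adjusted p from 0.0542 to 0.103. The other phosphatidylcholine-binding pair was far lower. Ighv12-3 was at 0.658, 0.200 and 0.731 CPM against 1.03, 0.468 and 1.08 CPM, higher in the radiated femur of each number (log2 fold change 0.61 ± 0.45 SE, adjusted p 0.495 in edgeR, and 0.175 with the block). Igkv4-91 was at 1.21, 0.799 and 0.944 CPM against 4.28, 0.786 and 2.64 CPM. Numbers 1 and 3 were higher in the radiated femur and number 2 was not, and its log2 fold change of 1.35 (SE 0.51) had an edgeR adjusted p of 0.159, or 0.0402 with the block. Ighv11-1, Ighv12-3 and Igkv4-91 were chosen after their values were seen.

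Ighv1-15 and Ighv1-19, of the large Ighv1 family, also rose. Ighv1-15 was at 1.07, 2.08 and 1.27 CPM in the non-radiated and 3.83, 2.62 and 2.78 CPM in the radiated libraries (log2 fold change 1.08 ± 0.26 SE, adjusted p 0.0367 in edgeR). Ighv1-19 was at 1.18, 1.60 and 1.16 CPM against 2.48, 1.93 and 2.55 CPM (log2 fold change 0.84 ± 0.20 SE, adjusted p 0.0367 in edgeR, and 0.0514 with the block). Neither overlapped between groups. Both calls failed in 4 of the 6 fits that left out 1 library, those omitting number 1 or number 3 of either group, with adjusted p from 0.0506 to 0.13. Both have a close relative, Ighv1-23 at 98.0% identity for Ighv1-15 and the far more abundant Ighv1-26 at 96.3% for Ighv1-19, so reads may be split between them.

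Of 169 tested variable genes, none fell with the group alone (3.24% of all genes fell). With the block 3 fell (1.78%, against 3.39% of all genes). Ighv1-53 was at 8.31, 9.06 and 12.9 CPM in the non-radiated and 5.15, 6.39 and 7.28 CPM in the radiated libraries, without overlap (log2 fold change -0.69 ± 0.19 SE, adjusted p 0.0583 in edgeR, and 0.0085 with the block). Igkv6-23, at 5.43, 5.31 and 7.98 CPM against 2.83, 3.35 and 5.40 CPM, had an adjusted p of 0.141 without and 0.0142 with the block. Ighv1-12 was at 1.73, 15.4 and 6.32 CPM against 0.951, 12.8 and 3.05 CPM (adjusted p 0.831, and 0.0493 with the block). Its levels show how far numbers differ: number 2 was the highest and number 1 the lowest in both groups. Of the other variable genes that rose with the block and not with the group alone, Iglv3 went from 0.0666 to 0.0373, Igkv6-15 from 0.282 to 0.0315 and Ighv5-9-1 from 0.518 to 0.0479 in adjusted p. The genes of this paragraph other than Iglv3 were chosen after their values were seen.

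**Figure D3:**
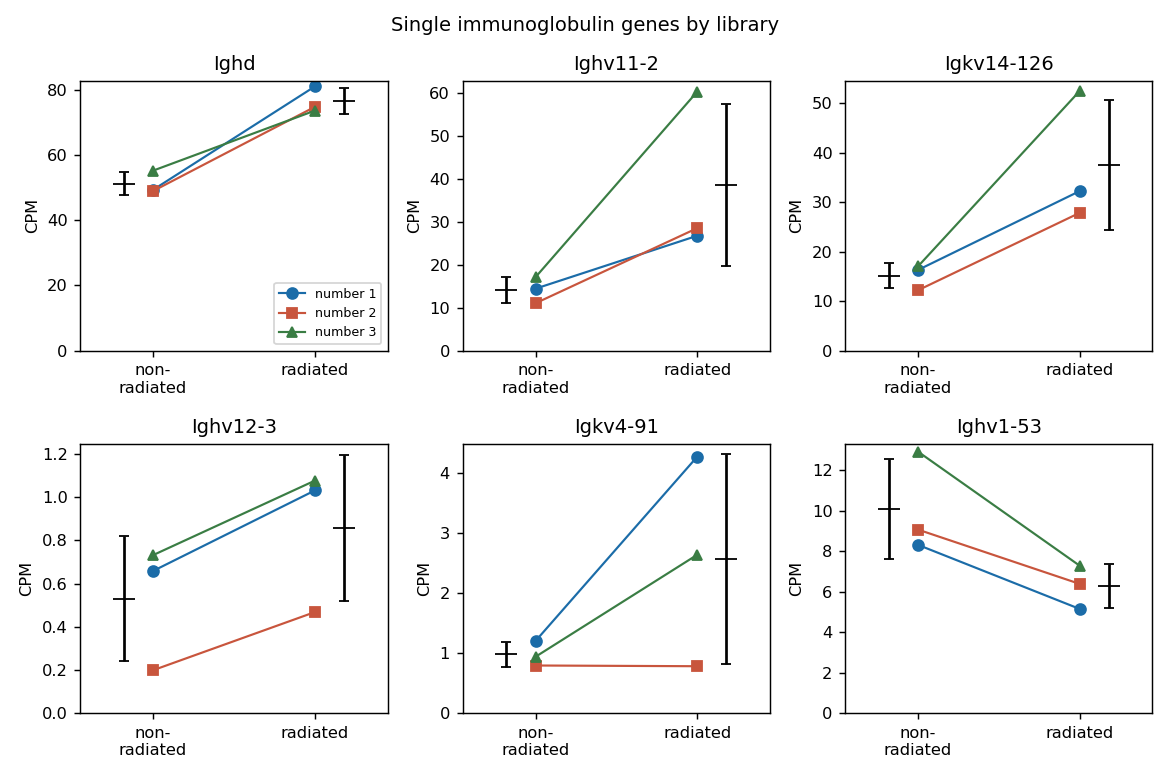
CPM of 6 immunoglobulin genes in each library, with lines joining the same number and black bars for the mean and SD of 3 libraries. Ighd, Ighv11-2 and Igkv14-126 rise in every number with no overlap, Ighv12-3 and Igkv4-91 overlap, and Ighv1-53 is lower in each number (8.31 to 12.9 CPM against 5.15 to 7.28 CPM).

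Levels of abundant variable genes were often alike in the 2 libraries of a number. Of 44 V genes averaging 5 CPM or more, among 169 tested, 30 had more than 50% of their CPM in the 2 libraries of 1 number, and 10 had more than 75%. In 28 the 2 highest libraries carried the same number. The median standard error of the log2 fold change over these 44 genes was 0.70 with the group alone and 0.20 with the block. The number is the only link the labels give between a radiated and a non-radiated library, and they do not say that it marks a mouse.

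Several abundant kappa V genes were high in 1 number. Igkv5-39 was at 56.8, 4.95 and 22.6 CPM in the non-radiated and 70.1, 3.595 and 11.1 CPM in the radiated libraries, with 75.03% of its CPM in number 1. Igkv9-120 was at 3.40, 15.4 and 2.52 CPM against 3.54, 30.5 and 3.74 CPM, with 77.6% in number 2. Igkv12-46 was at 7.98, 3.31 and 75.6 CPM against 6.63, 2.92 and 38.9 CPM, with 84.6% in number 3. Each of the 3 was thus high in both libraries of its own number and low in the other 4 libraries, apart from the intermediate values of Igkv5-39 in number 3. Igkv5-43 held 75.4% of its CPM in number 2 and Igkv19-93 held 78.1% in number 3. Igkv19-93 overlaps another row with its own name, and Igkv4-55, also among the 8 most abundant kappa V genes, overlaps Gm11143.

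Heavy V genes showed the pattern as well. The row Gm16710, named Ighv1-74 in GENCODE M21, was at 17.5, 0.958 and 1.77 CPM against 23.2, 0.674 and 1.86 CPM, with 88.5% in number 1. It carries no locus prefix, so the heavy locus sums and the shares of heavy V counts leave it out. Ighv1-4 was at 3.02, 0.998 and 41.3 CPM against 9.09, 0.749 and 15.3 CPM, with 80.3% in number 3. Number 1 stood out for the former and number 3 for the latter, in both groups. Ighv8-8 was the most abundant heavy V gene in non-radiated library 1, Ighv1-12 in non-radiated library 2, Ighv1-26 in non-radiated library 3 and Ighv1-80 in radiated library 1. Some of these genes were uneven within a number too. In 10 of the 44 genes 1 library held over 50% of the CPM, such as Igkv19-93 (38.2 CPM in non-radiated library 3, 10.4 CPM in radiated library 3) and Ighv5-4 (30.9 and 7.04 CPM in the same libraries).

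**Figure D4:**
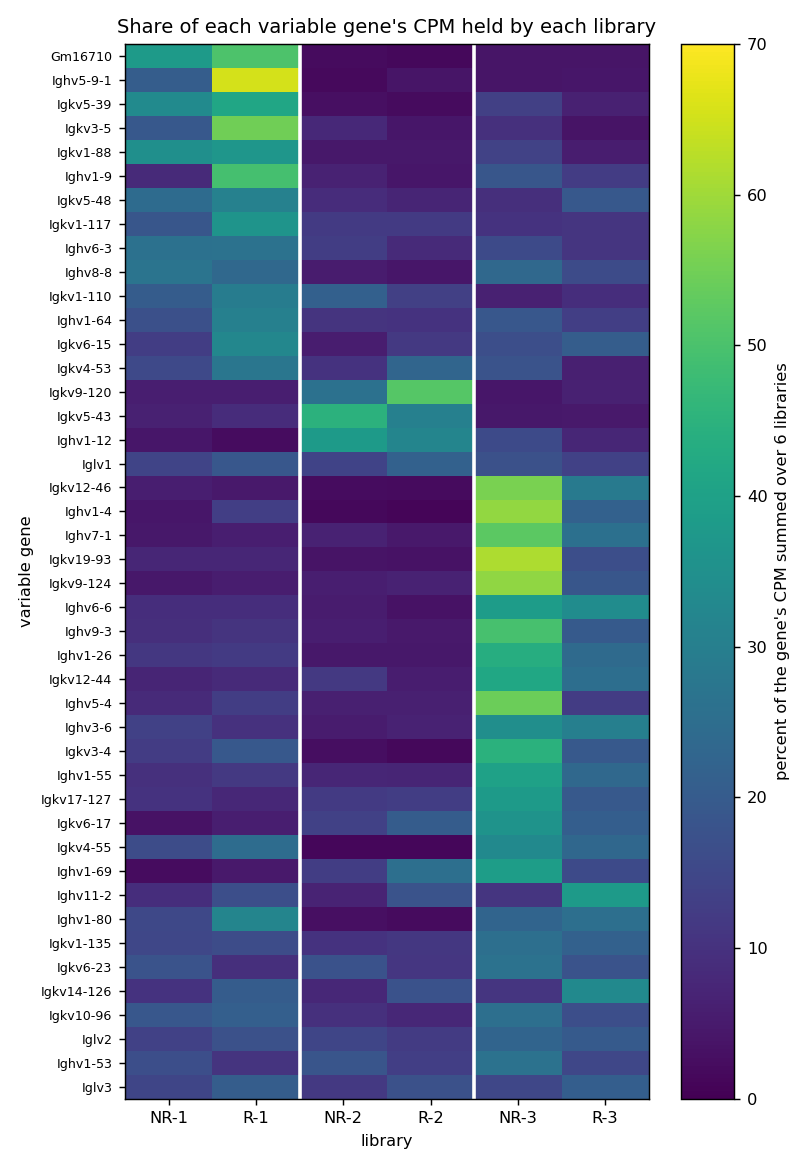
Percent of each V gene's CPM, summed over the 6 libraries, that each library holds, for the 44 V genes averaging 5 CPM or more, grouped by the number with the largest share. In 28 of the 44 genes the 2 highest libraries are NR and R of the same number, side by side. Examples are Gm16710 with 88.5% in number 1 and Igkv12-46 with 84.6% in number 3. In 10 genes 1 library holds over 50%.

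Compared over whole loci, each library was closest to the library of the same number in the other group. Shared usage is the sum, over the V genes of a locus, of the smaller of 2 libraries' shares. For the 172 heavy V genes it was 75.7%, 79.1% and 74.6% for numbers 1, 2 and 3, against 49.996% to 67.5% for the 12 pairs of different number. For the 98 kappa V genes it was 85.8%, 79.1% and 75.3%, against 43.0% to 58.3%. Pearson's r between square roots of the shares, across genes, was 0.919 to 0.939 for the same number and 0.736 to 0.869 for different numbers in the heavy locus, and 0.873 to 0.957 against 0.448 to 0.681 in the kappa locus. Genes are not independent replicates, and these are descriptions. In both loci all 6 libraries were most like their own number. Among pairs of different number, those of 1 group shared 53.5% to 67.5% of heavy and 46.5% to 58.3% of kappa usage, and those of opposite groups 49.996% to 66.9% and 43.0% to 57.2%.

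**Figure D5:**
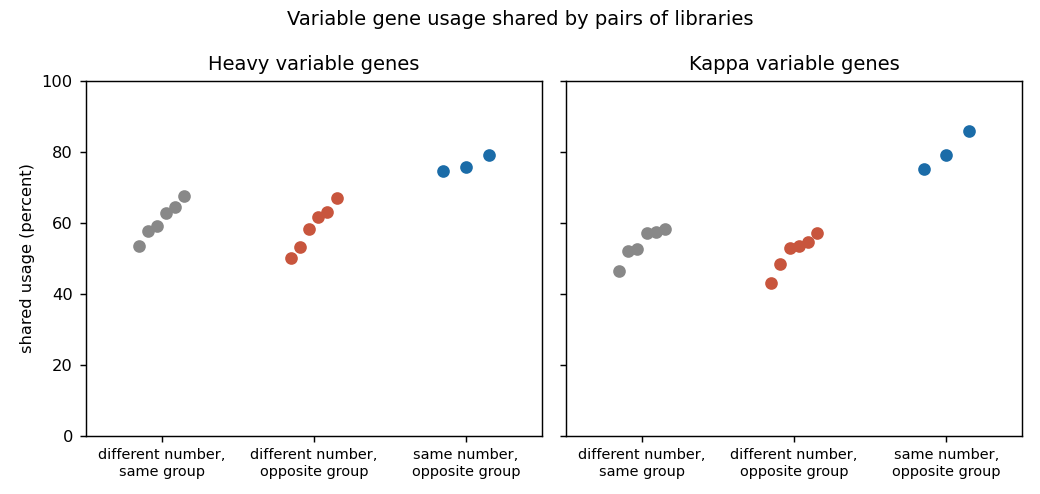
Percent of V gene usage shared by each pair of libraries, for heavy and kappa V genes, by whether the pair has the same number and the same group. The 3 pairs of the same number (74.6% to 79.1% heavy, 75.3% to 85.8% kappa) lie above all 12 pairs of different number.

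The evenness of V gene use overlapped between the groups. The effective number of V genes (inverse Simpson index of their shares, the number of equally used genes that would give the same index) was 34.3, 35.2 and 18.4 in the non-radiated and 28.6, 25.0 and 17.7 in the radiated libraries for the heavy locus. For the kappa locus it was 17.1, 22.0 and 18.6 against 18.3, 16.8 and 18.2. Number 3 had the lowest heavy value in both groups, and the heavy value was lower in the radiated femur of each number. The share of the most abundant heavy V gene was higher there in each number, with ratios of 1.33, 1.68 and 1.33, while the groups overlapped. The number of heavy V genes with at least 1 count was 114, 109 and 113 in the non-radiated and 115, 117 and 121 in the radiated libraries, without overlap. A number of this kind can change with depth. Total counts were greatest in radiated library 2, and heavy V counts in non-radiated library 3 (20551). The part of depth was not tested. The number of kappa V genes with at least 1 count was 91, 94 and 92 against 92, 95 and 94.

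By family, Ighv1 was the largest of the heavy locus, with 45.4%, 51.4% and 51.6% of heavy V counts in the non-radiated and 47.9%, 45.6% and 45.6% in the radiated libraries. The shares of Ighv11 did not overlap between groups, at 5.65%, 6.03% and 3.58% against 7.40%, 14.3% and 16.5%. Nearly all of it was Ighv11-2. The other family without overlap was Igkv18, with 1 gene that had 0 counts in the non-radiated libraries. It held 0.00653%, 0.0369% and 0.0267% of kappa V counts in the radiated ones. A count of 0 allows up to 3 counts, so this is no clear separation. Igkv14, the family of Igkv14-126, was at 7.28%, 9.32% and 4.32% against 9.28%, 16.0% and 16.9%, which overlapped between non-radiated library 2 and radiated library 1. By position, the 43 heavy V genes nearest to the J segments (143 to 630.3 kb away) held 22.9%, 26.9% and 20.3% against 28.4%, 35.2% and 29.7%. Those shares did not overlap. Without Ighv11-1 and Ighv11-2, which lie among them, they held 18.2%, 22.2% and 17.3% against 22.7%, 24.4% and 15.9%, and the groups overlapped. With the V genes split by distance into 4 blocks per locus, the shares of the other 3 heavy blocks and of all 4 kappa blocks overlapped.

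Genes that work beside the immunoglobulin loci moved more evenly. Of 17 genes of pre-B cells and V(D)J recombination, 13 rose (4.56% of all genes rose), with a median log2 fold change of 0.76. Rag1, which cuts DNA at the segments' borders with Rag2, was at 100.1, 75.7 and 85.6 CPM in the non-radiated and 139.6, 119.3 and 185 CPM in the radiated libraries, without overlap (log2 fold change 0.76 ± 0.15 SE, adjusted p 0.0171 in edgeR). Igll1, part of the surrogate light chain that pairs with the first heavy chain, was at 18.8, 16.4 and 17.4 CPM against 38.9, 34.5 and 37.0 CPM (log2 fold change 1.07 ± 0.08 SE, adjusted p 7.49e-05 in edgeR). The 3 values in each group lay close together, unlike those of most V genes. Xrcc4, Dclre1c and Prkdc, which join DNA ends in many cell types, had adjusted p of 0.44 to 0.899. Lig4, the ligase that seals the joined ends, rose (log2 fold change 0.51 ± 0.12 SE, adjusted p 0.0301 in edgeR).

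Among 15 tested genes of mature B cells 9 rose (4.56% of all genes rose), with a median log2 fold change of 0.39. Cd22, an inhibitory receptor of mature B cells, was at 40.0, 41.5 and 47.2 CPM against 72.1, 61.3 and 70.04 CPM (log2 fold change 0.66 ± 0.08 SE, adjusted p 0.00191 in edgeR). Among 15 tested plasma cell genes 4 rose and 1 fell (4.56% and 3.24% of all genes), with a median of 0.21. With the block 6 rose and 0 fell (5.51% and 3.39% of all genes). The 2 that the block added were Prdm1, a transcription factor of plasma cells (adjusted p 0.128 without and 0.00988 with the block), and Cd38 (0.141 and 0.0267). Edem1, of protein degradation in the endoplasmic reticulum, was the gene that fell (-0.21, edgeR adjusted p 0.0481, and 0.0588 with the block). The 4 that rose were Mzb1, Irf4, Slamf7 and Pou2af1, of which Irf4 and Pou2af1 also act before the plasma cell stage. Tnfrsf17, a receptor of plasma cells, was low, at 0.631, 0.279 and 1.13 CPM against 0.634, 0.318 and 0.583 CPM (edgeR adjusted p 0.597). Its highest value was in non-radiated library 3. Xbp1, Derl3, Fkbp11 and Edem1 were also highest in that library, and the other plasma cell genes tested were highest in a radiated one. Among 17 tested partner genes of immunoglobulins 6 rose and 1 fell (4.56% and 3.24% of all genes), with a median of 0.09. Cd79a and Cd79b, which carry the signal of the membrane-bound antibody, had log2 fold changes of 0.76 and 0.64 (SE 0.08 each, edgeR adjusted p 0.000785 and 0.00158), and Fcer1a, a chain of the IgE receptor, was the gene that fell (-0.58, adjusted p 0.0442, and 0.0591 with the block). The plasma cell and partner lists share Mzb1 and Pou2af1.

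Levels of other tissue and cell markers follow. Summed over 10 skeletal muscle genes, the level was 184, 327 and 159 CPM in the non-radiated and 727, 2377 and 187 CPM in the radiated libraries, highest in radiated library 2. Their edgeR adjusted p ran from 0.0834 to 0.182, and 9 of the 10 rose with the block (5.51% of all genes). Of 10 T cell genes 1 rose (4.56% of all genes rose), with summed levels of 53.9 to 59.3 CPM against 69.3 to 80.0 CPM. Of 10 bone genes 3 fell (3.24% of all genes fell), with sums of 4626 to 6979 CPM against 3452 to 4365 CPM, and of 10 neutrophil genes 1 fell, with sums of 14920 to 19155 CPM against 11855 to 13930 CPM. None of these 40 genes was at 0 in any library. Their part in the differences above was not tested.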

How the data were processed

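Whole femurs were homogenized after removal of muscle, and stranded mRNA libraries were sequenced, per the labels' protocols. The authors deposited 1 table with whole-number counts per gene and RPKM values side by side, per the file headers, and only the counts were used. STAR 2.5.2b, featureCounts of Subread, bcl2fastq and build mm10 are named in the submitters' processing notes. The strand setting of the counting and the handling of reads that map to several genes are not given in the sources used here. Of 168 tested variable genes with a transcript in GENCODE M21, 89 have another variable gene at or above 95% identity over at least 200 bases (BLAST 2.17.0), so their counts may be split.

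Counts were scaled by TMM and filtered with filterByExpr (minimum count 10, minimum total 15). They were tested with edgeR 4.0.16 (quasi-likelihood, group only, R 4.3.3), with Benjamini-Hochberg adjustment across 18757 genes. The script was tested on simulated data. Alternatives were other scalings and filters, DESeq2 1.42.0, voom in limma 3.58.1, the library number as a block, and leaving out each library. Deviations from group means of same-numbered libraries correlated at 0.186, 0.349 and 0.204 (-0.221 to 0.02 for different numbers), with the IG_ rows included. Without the IG_ rows these correlations were 0.061, 0.249 and 0.0919, and those of different numbers ran from -0.171 to 0.0873. Number 1 then lay inside the range of different numbers, and number 3 just above it. Pairing entered only the fit with the block and the descriptions by number, and the main test used the group alone.

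Genes named are the constant and joining genes, the 8 most abundant variable genes of the heavy and of the kappa locus, the lambda genes, the called variable genes averaging 1 CPM or more (up to 6 in each direction), up to 6 with over 50% of their CPM in 1 library, and genes of the fixed lists. Members and lists were chosen with earlier results of these data known. Immunoglobulin promoters were not analysed here. Of the 469 members, 460 have their identifier in GENCODE M21. A count of 0 allows up to 3 counts, and intervals at 95% confidence cover counting error only. Libraries of 1 group differed beyond counting noise (chi-square per degree of freedom 16.6 or more).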

Additional observations from a re-analysis of the deposited data

How the results depend on the processing

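In the main fit 6 immunoglobulin rows were higher and 0 lower, where 1463 of 18757 genes were called either way. With library totals alone the count was 20 and 9 (1000 of 18757 genes), and the median over all genes was 0.19 (log2). Totals that leave out AY036118 and Gm26917 gave 6 and 0 (1499 of 18757), with that median at 0.03. Without a filter on low counts the count was 11 and 4 (2073 of 28798). DESeq2's Wald test gave 9 and 2 (1938 of 18757). The fit with the library number as a block, which treats libraries of 1 number as pairs, gave 10 and 4 (1670 of 18757). Leaving out 1 library gave 2 to 8 higher and 0 to 1 lower. The number higher was 2 without non-radiated library 1 (905 of 19280 genes called either way) and 3 without radiated library 1 (764 of 19169). It was 8 without radiated library 2 (1130 of 18864). The difference in the effective number of kappa variable genes went from -1.50 to 1.33 without the most abundant variable gene of each library. The difference in the share of the 43 heavy variable genes nearest to the J segments went from 7.76 to 1.71 percentage points without Ighv11-1 and Ighv11-2, a setting chosen after seeing the data. The cause of the changes with the filter, the tool, the block and single libraries was not tested. Of 730 alternative values for 49 named genes, 0 called values changed sign, 17 lost and 28 gained a call. Among values not called either way, 68 changed sign.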
